A study of Mus musculus with 6 samples.

Results

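The genes described here encode the proteins of elastic fibres and of the microfibrils that scaffold them. They are the 10 rows of the deposited count table named Eln (elastin), Fbn1 and Fbn2 (fibrillins), Fbln1, Fbln2, Fbln5, Efemp1 and Efemp2 (fibulins), and Mfap2 and Mfap5 (microfibril-associated glycoproteins), chosen by name out of 21033 gene symbols. All 10 were present in the table, and 9 of them held enough reads to be tested among 10124 genes. Elastin had too few reads.

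Microfibrils are filaments of polymerised fibrillin that carry associated glycoproteins such as those made by Mfap2 and Mfap5. Where elastin is made, fibulins help to place its soluble precursor on these filaments, and lysyl oxidases then cross-link it into an elastic core. Microfibrils also occur without elastin, and in many tissues they hold latent TGF-β and BMP growth factors in the matrix.

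RNA was measured in synovial fibroblasts, the mesenchymal cells of the joint lining and of the tissue below it, isolated as primary cells from the ankle joints of hTNFtg mice and grown for 3 passages. The hTNFtg genotype, a human TNF transgene that gives mice chronic arthritis, was shared by both groups. One group of 3 libraries came from cells exposed to 10 µM compound 33 for 48 h, and the other group of 3 came from cells exposed to DMSO, the vehicle, for the same time. The labels do not say whether the replicates of a group came from separate animals or cultures, so p-values reflect only how these libraries vary, a variation that may be technical.

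The compound 33 libraries held 1594052 to 2384850 reads and the DMSO libraries 1913730 to 2897207. Reads come from the 3′ end of each transcript, so levels are given as counts per 1000000 reads of the scaled library (CPM) without division by gene length. The 9 fibroblast markers summed to 10900 to 12900 CPM in compound 33 libraries and 12100 to 13600 CPM in DMSO libraries, and 0 of them passed the test. Within that sum, Thy1 was lower and Pdgfrb higher with compound 33 without overlap of the groups (log2 fold changes -0.65 and 0.62). The other fibroblast markers overlapped, and over all tested genes 13.4% had groups that did not overlap. Markers of smooth muscle cells, which make much elastin in vessel walls, and of pericytes were summed together. They reached 58.0 to 102 CPM in compound 33 libraries and 53.6 to 85.3 CPM in DMSO libraries. Within that sum, Cspg4 was higher with compound 33 without overlap (log2 fold change 0.70, edgeR adjusted p = 0.674). So was Des, which had too few reads to test (7, 6 and 4 with compound 33, against 1, 1 and 1 with DMSO). The rest of this list overlapped, with Rgs5 lower on average with compound 33 (0.586 against 2.64 CPM). Endothelial markers summed to 5.15 to 9.54 CPM in compound 33 libraries and 2.44 to 3.16 CPM in DMSO libraries, with Pecam1 at 0 reads in all 6. These ranges did not overlap, but they rest on few reads, and 0 of the 5 endothelial genes could be tested. Tek, for example, held 7, 17 and 4 reads in compound 33 replicates 1 to 3, against 4, 1 and 3 in DMSO replicates 1 to 3. Macrophage and leukocyte markers summed to 53.5 to 99.3 CPM in compound 33 libraries and 63.1 to 136 CPM in DMSO libraries, and chondrocyte markers, with Acan at 0, to 112 to 159 CPM in compound 33 libraries and 80.6 to 166 CPM in DMSO libraries. Adipocyte markers summed to 102 to 166 CPM in compound 33 libraries and 51.4 to 148 CPM in DMSO libraries. Nearly all of this was Fabp4, since Adipoq and Plin1 held 1 and 2 reads in total. Skeletal muscle markers summed to 18.0 to 31.8 CPM in compound 33 libraries and 24.4 to 39.8 CPM in DMSO libraries. The part of these cells in the results below was not tested, and in bulk RNA fewer cells of a type and less RNA per cell cannot be told apart.

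The libraries held many reads of microfibril genes and almost no elastin read. Fbn1 and Mfap5 were the most abundant of the 10 genes, at ranks 115 and 147 of the 10124 tested genes by mean level, and they took 32.2% and 27.1% of the reads of the 10 genes. Fbn1 stood above Mfap5 in only 3 of 6 libraries, and DMSO replicate 1 alone held 4504 of its 12048 reads. The fibulins Fbln2 and Fbln5 followed at ranks 401 and 540. Efemp2 and Efemp1 stood at ranks 964 and 1183. Fbln1, Fbn2 and Mfap2 were much lower, at ranks 5616, 6485 and 7660. Fbn2 stood above Mfap2 in only 1 of 6 libraries, compound 33 replicate 1, which sets its place in the order. In this order of mean levels, the ranges over the 6 libraries did not overlap between Mfap5 and Fbln2, between Efemp1 and Fbln1, or between Mfap2 and elastin, and all other neighbours overlapped.

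**Figure D1:**
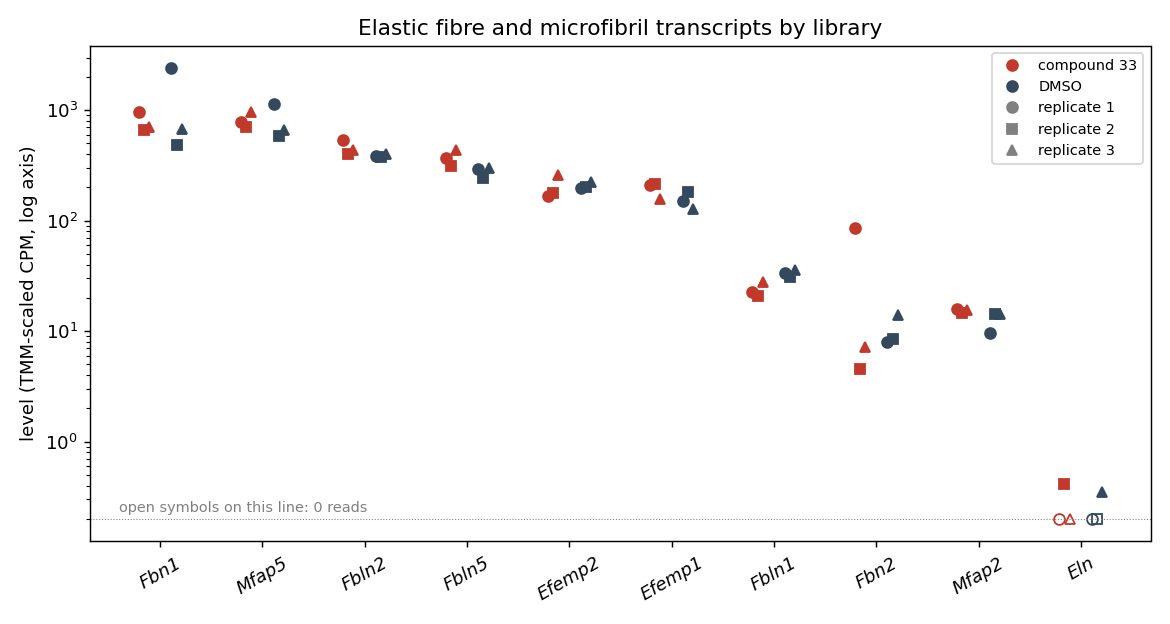
Level of each gene in each library, in scaled CPM on a log axis, with genes ordered by their mean over all libraries; red symbols are compound 33, dark symbols are DMSO, and the symbol shape gives the replicate number. Fbn1 in DMSO replicate 1 (2388 CPM) and Fbn2 in compound 33 replicate 1 (85.6 CPM) stand far above the other libraries, and 4 of the 6 libraries held no elastin read.

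The study compared compound 33 with its vehicle to find genes deregulated in activated fibroblasts. None of the 9 tested genes passed the test for a change: 0 passed edgeR's quasi-likelihood test with Benjamini-Hochberg adjustment over all 10124 genes, and the smallest adjusted p was 0.73. Before adjustment 0 of 9 lay under 0.05, and DESeq2 and limma-voom also passed 0, with 0 under an unadjusted 0.05 in each. With single libraries left out, edgeR had 2 genes under an unadjusted 0.05 without compound 33 replicate 3 (Efemp1 and Fbln1), 1 without compound 33 replicate 2 (Fbn2) and 1 without DMSO replicate 2 (Fbn1). Over all genes 0.0296% passed the edgeR test, and 6.87% lay under an unadjusted 0.05. The log2 fold change of compound 33 over DMSO was positive for 6 of the 9 genes and negative for 3, with a median of 0.24, where the median over all tested genes was -0.01. The median was 0.07 without compound 33 replicate 1 and 0.15 under a stricter low-count filter, which left out Fbn2. For 6 of the 9 genes, namely Fbln2, Fbln5, Efemp1, Efemp2, Mfap2 and Mfap5, the 95% interval of the change stayed inside 2-fold in either direction. The intervals of Fbn1, Fbn2 and Fbln1 reached beyond it.

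**Figure D2:**
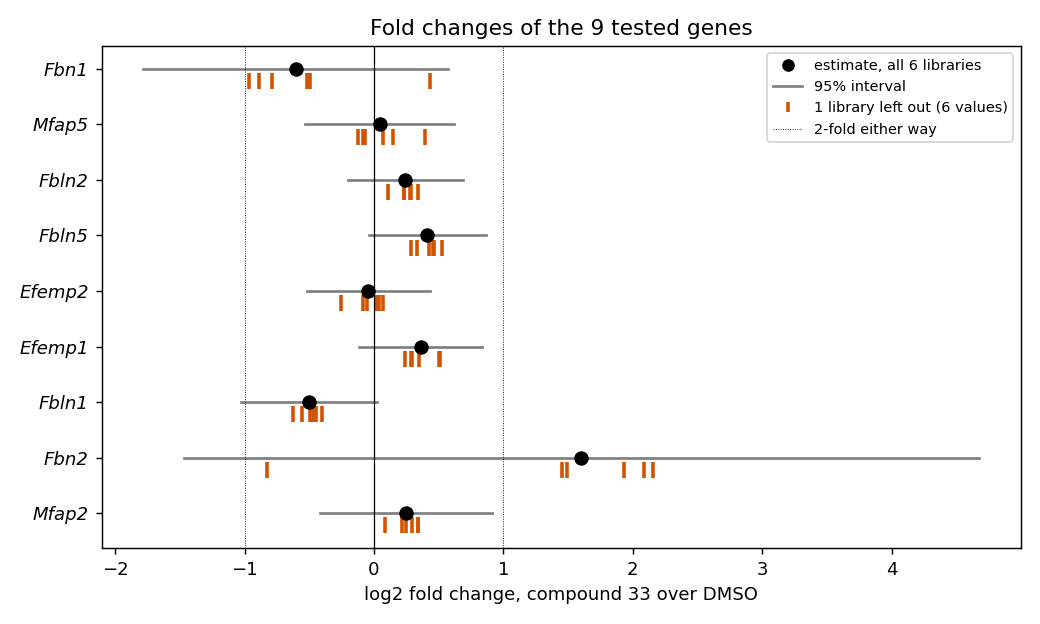
Log2 fold change of compound 33 over DMSO for the 9 tested genes (black points, edgeR) with its 95% interval (grey lines), and the 6 estimates with 1 library left out each (orange ticks). All 9 intervals cross 0, and the estimates of Fbn1, Fbn2, Efemp2 and Mfap5 change sign when certain single libraries are left out.

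Fibrillin-1, the product of Fbn1, is the main subunit of microfibrils in adult tissue. Fbn1 stood at 964, 669 and 698.5 CPM in compound 33 replicates 1 to 3, against 2388, 484 and 670.2 CPM in DMSO replicates 1 to 3. The value of DMSO replicate 1 was 2.48 times the next highest library, and the other 5 libraries lay between 484 and 964 CPM, so the groups overlapped. The means were 777 ± 163 CPM with compound 33 and 1181 ± 1050.0 CPM with DMSO (SD, n = 3 each). Their log2 fold change of -0.60 (SE 0.52, 95% interval -1.78 to 0.58) had an edgeR adjusted p of 0.892. Without DMSO replicate 1 the estimate was 0.43 (SE 0.24, edgeR adjusted p = 0.61), with the opposite sign. On all 6 libraries it was -0.26 in limma-voom and -0.25 with the replicate number as a block. A ratio of the highest library to the next as large as that of Fbn1 was uncommon but not unique, since 26 tested genes exceeded it.

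Fibrillin-2, the product of Fbn2, is best known from embryonic and fetal microfibrils. Fbn2 stood at 85.6, 4.56 and 7.21 CPM in compound 33 replicates 1 to 3, against 7.95, 8.57 and 13.9 CPM in DMSO replicates 1 to 3. As reads these were 140, 11 and 14 in compound 33 libraries, against 15, 19 and 40 in DMSO libraries. Compound 33 replicate 1 alone was high, while the other 2 compound 33 libraries lay below all 3 DMSO libraries. That library held 6.15 times the level of the next highest one, and 0 of the other tested genes had a larger ratio between their highest and second highest libraries. The log2 fold change was 1.60 (SE 1.21, 95% interval -1.47 to 4.67, edgeR adjusted p = 0.89). Without compound 33 replicate 1 it was -0.83 (SE 0.48, edgeR adjusted p = 0.912), and limma-voom gave 0.30 on all 6 libraries.

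The fibrillin values that stood apart came from different libraries and moved the balance of the pair. For every 100 Fbn1 reads there were 8.88, 0.682 and 1.03 Fbn2 reads in compound 33 replicates 1 to 3, against 0.333, 1.77 and 2.08 in DMSO replicates 1 to 3. The highest ratio was that of compound 33 replicate 1 and the lowest that of DMSO replicate 1. The spread of log2 CPM within groups was 0.884 for Fbn1 and 1.59 for Fbn2, at the percentiles 97.6 and 99.8 of all tested genes, whereas the other 7 tested genes ranged between the percentiles 10.2 and 62.3. Compound 33 replicate 1 was at least 2-fold above every other library in 16 tested genes and DMSO replicate 1 in 24, where the other 4 libraries ranged between 1 and 30. A batch was not given in the labels, and a part of library quality in these values was not tested.

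**Figure D3:**
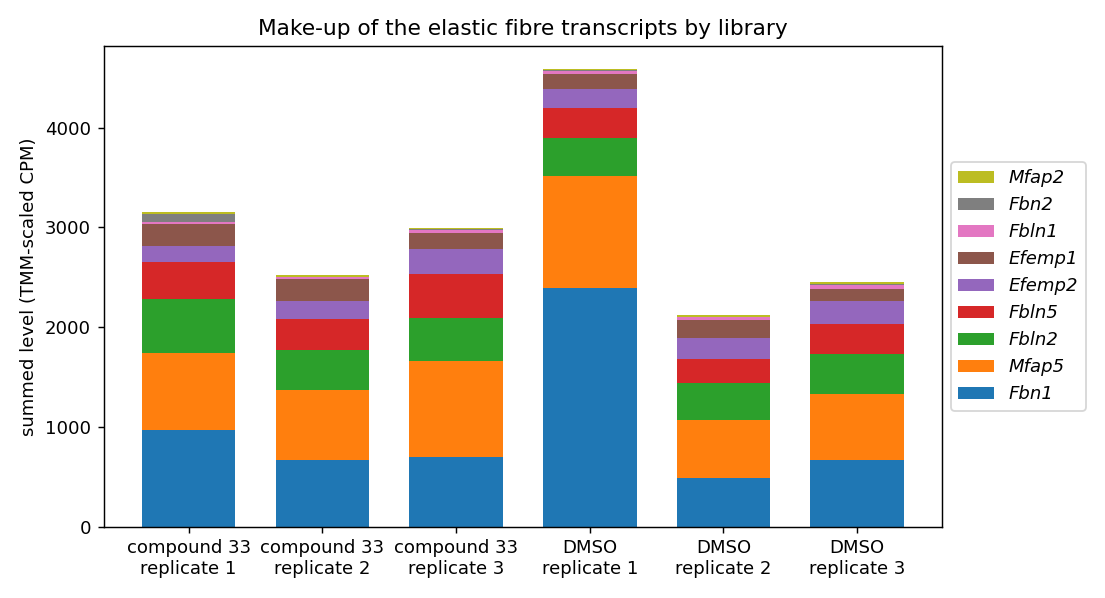
Summed level of the genes in each library, in scaled CPM, with each gene as a coloured segment (elastin, with 2 reads in all, is left out). DMSO replicate 1 reaches 4590 CPM, of which Fbn1 is 52.0%, while the other 5 libraries lie between 2121 and 3155 CPM.

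Together the 10 genes summed to 3155, 2521 and 2995 CPM in compound 33 replicates 1 to 3, against 4590, 2121 and 2450 CPM in DMSO replicates 1 to 3. Fbn1 made up 30.6%, 26.5% and 23.3% of the sum in compound 33 libraries, against 52.0%, 22.8% and 27.4% in DMSO libraries. The sum without Fbn1 averaged 2113 ± 232 CPM with compound 33 and 1873 ± 294 CPM with DMSO (SD, n = 3 each). The difference was smaller than the SD of the DMSO libraries and slightly larger than that of the compound 33 libraries, and it was not tested. The share of Mfap5 was even across libraries, between 24.6% and 32.0%.

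The microfibril-associated glycoproteins MAGP-1, made by Mfap2, and MAGP-2, made by Mfap5, are small proteins that bind fibrillin. Mfap5 stood at 779, 703.5 and 957 CPM in compound 33 replicates 1 to 3, against 1127, 581 and 659 CPM in DMSO replicates 1 to 3. DMSO replicate 1 was the highest library, as it was for Fbn1, and compound 33 replicate 3 came next. The groups overlapped, with a log2 fold change of 0.04 (SE 0.27, 95% interval -0.53 to 0.62, edgeR adjusted p = 0.985).

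Mfap2 was far less abundant than Mfap5, at 15.9, 14.5 and 15.4 CPM in compound 33 replicates 1 to 3, against 9.54, 14.4 and 14.3 CPM in DMSO replicates 1 to 3. All 3 compound 33 libraries lay above all 3 DMSO libraries, but the nearest pair held 35 and 32 reads and stood at nearly the same level. The log2 fold change was 0.25 (SE 0.31, edgeR adjusted p = 0.932). For every 100 Mfap5 reads there were 2.04, 2.06 and 1.61 Mfap2 reads in compound 33 libraries, against 0.847, 2.49 and 2.17 in DMSO libraries. DMSO replicate 1 had the lowest ratio, and the groups overlapped.

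Elastin, the rubber-like core protein, was close to absent in the counts. Exons of Eln overlap the predicted gene Gm30003 on the opposite strand. How reads at such an overlap were assigned is not known, and the effect on the elastin count was not tested. Eln had 0, 1 and 0 reads in compound 33 replicates 1 to 3, against 0, 0 and 1 read in DMSO replicates 1 to 3. Over all libraries this was 2 reads among 13042310, or 0.154 CPM, with an exact Poisson 95% interval of 0.0187 to 0.557 CPM that covers counting error only. Each of the 4 libraries with 0 reads allows a level of up to 1.35 to 1.83 CPM, taken as 3 counts. No fold change is given, because both groups lie under that limit. Of the table's symbols, 13601 held more reads than elastin. A difference in elastin between the groups was not detectable at this depth, while Fbn1 held at least 1072 reads in every library and Fbln5 at least 542.

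Fibulin-5, made by Fbln5, and fibulin-4, made by Efemp2, are short fibulins that bind the elastin precursor and lysyl oxidases and are needed for elastic fibre assembly in mice. Fbln5 stood at 366, 314 and 437.5 CPM in compound 33 replicates 1 to 3, against 296, 244.5 and 299 CPM in DMSO replicates 1 to 3. Every compound 33 library was above every DMSO library. The means were 372.5 ± 61.9 CPM with compound 33 and 279.8 ± 30.6 CPM with DMSO (SD, n = 3 each). The log2 fold change of 0.41 (SE 0.21, 95% interval -0.04 to 0.87) had an unadjusted p of 0.071 and an edgeR adjusted p of 0.755. In the authors' deposited table Fbln5 has a log2 fold change of 0.41 with an adjusted p of 0.95. That table has 0 of the 10 genes under an adjusted 0.05 and 0 under an unadjusted one, where 0.179% of the genes given an adjusted p in the authors' deposited table passed.

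Efemp2 stood at 168, 179.5 and 259 CPM in compound 33 replicates 1 to 3, against 196, 203 and 226 CPM in DMSO replicates 1 to 3. Compound 33 libraries held both the lowest and the highest value. Its log2 fold change of -0.04 (SE 0.22, 95% interval -0.52 to 0.43) had an edgeR adjusted p of 0.983.

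Fibulin-3, made by Efemp1, is the third short fibulin and an extracellular glycoprotein of loose connective tissue. Efemp1 stood at 212, 217 and 157 CPM in compound 33 replicates 1 to 3, against 150.1, 180.0 and 127 CPM in DMSO replicates 1 to 3. Replicates 1 and 2 with compound 33 were above every DMSO library, and replicate 3 lay among them. Its log2 fold change was 0.36 (SE 0.22, 95% interval -0.12 to 0.84, edgeR adjusted p = 0.818).

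The long fibulins, made by Fbln1 and Fbln2, bind fibrillin, fibronectin and basement membrane proteins. Fbln1 stood at 22.6, 20.7 and 27.8 CPM in compound 33 replicates 1 to 3, against 33.9, 30.7 and 35.9 CPM in DMSO replicates 1 to 3. Every compound 33 library was below every DMSO library. The means were 23.7 ± 3.66 CPM with compound 33 and 33.5 ± 2.62 CPM with DMSO (SD, n = 3 each). The log2 fold change of -0.50 (SE 0.24, 95% interval -1.03 to 0.02) had an unadjusted p of 0.0594 and an edgeR adjusted p of 0.73. Fbln1 and Fbln5 thus had the smallest unadjusted p-values of the 9 genes, with opposite signs, and neither passed. Each kept its sign in every alternative run, between -0.63 and -0.40 for Fbln1 and between 0.29 and 0.53 for Fbln5. Efemp1, Fbln2 and Mfap2 kept theirs too. Because the groups of Fbln1, Fbln5 and Mfap2 did not overlap, leaving out libraries could hardly turn their signs.

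Fbln2 stood at 542, 398 and 435.0 CPM in compound 33 replicates 1 to 3, against 381, 375 and 404.5 CPM in DMSO replicates 1 to 3. Compound 33 replicate 1 was the highest library and compound 33 replicate 2 lay among the DMSO values. The log2 fold change was 0.24 (SE 0.20, 95% interval -0.20 to 0.69, edgeR adjusted p = 0.892). Of the 9 tested genes 3 had groups that did not overlap, Fbln5 and Mfap2 higher and Fbln1 lower with compound 33. Over all tested genes, 13.4% had groups that did not overlap, 6.64% higher and 6.73% lower.

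On the mm10 build the 10 genes lie on 9 chromosomes, with Fbln2 and Mfap5 both on chromosome 6. Fbn1 covers 207.4 kb of the minus strand of chromosome 2 (125300594 to 125507993), and Fbn2 covers 201.9 kb of the minus strand of chromosome 18 (58008623 to 58210487). Eln is a minus-strand gene of chromosome 5 (134702593 to 134747323). Among the fibulins, Fbln5 is on the minus strand of chromosome 12 (101746565 to 101819055) and Fbln1 on the plus strand of chromosome 15 (85205949 to 85286535). Plus-strand fibulin genes are also Fbln2 on chromosome 6 (91212455 to 91272540), Efemp1 on chromosome 11 (28853204 to 28926743) and Efemp2 on chromosome 19 (5473954 to 5482517). Mfap2 on chromosome 4 (141010418 to 141015984) and Mfap5 on chromosome 6 (122505845 to 122529290) are plus-strand genes too. All are protein coding. Exons of Eln, Fbn1, Fbn2 and Efemp2 overlap a gene on the opposite strand, which is Mus81 for Efemp2 and a predicted Gm gene for the others. No source used here states whether counting respected strand, so reads of such pairs cannot be told apart.

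The partners of the elastic fibre were examined in 8 lists holding 54 genes, of which 43 were tested. None of the 43 passed edgeR's quasi-likelihood test over all genes, and 0 passed in DESeq2 or limma-voom. Under an unadjusted 0.05 in edgeR, 4 were higher with compound 33 and 2 lower, where 3.64% and 3.23% of all tested genes lay. Their median log2 fold change was 0.02, with 23 positive and 20 negative values. Groups did not overlap for 4 of the 43 that were higher and 1 that was lower. Over all tested genes 6.64% were higher and 6.73% lower without overlap. Of the partners named here, Lox, Loxl2, Ltbp2, Ltbp3, Tgfb2, Tgfb3, Furin, Ctsa and Ctsl have exons that overlap a gene on the opposite strand, and Loxl2, Glb1 and Ctsl a gene on the same strand, so their counts are less certain.

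**Figure D4:**
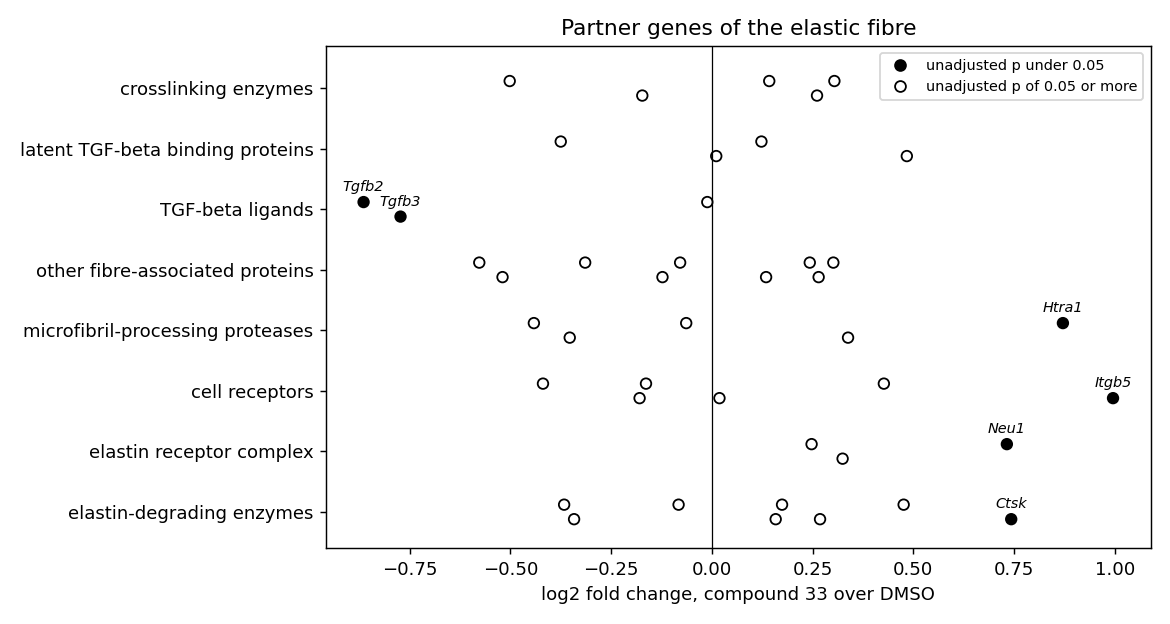
Log2 fold change of compound 33 over DMSO for the 43 tested partner genes, grouped by list, with filled points for an unadjusted p under 0.05. The 6 filled points are Htra1, Itgb5, Neu1 and Ctsk to the right of 0 and Tgfb2 and Tgfb3 to the left, and 0 of the 43 passed after adjustment.

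Among the cross-linking enzymes, 0 of 5 tested genes passed and 0 lay under an unadjusted 0.05. Lox, lysyl oxidase, which oxidises lysines of elastin and collagen, was more abundant than any of the 10 elastic fibre genes. It stood at 4388, 4761 and 8941 CPM in compound 33 replicates 1 to 3, against 9692, 4189 and 6512 CPM in DMSO replicates 1 to 3. As with Mfap5, DMSO replicate 1 and compound 33 replicate 3 were the highest libraries, and the groups overlapped (log2 fold change -0.17, SE 0.34, edgeR adjusted p = 0.956). Loxl1, the family member most closely tied to elastic fibres in mice, averaged 641 ± 75.8 CPM with compound 33 and 535 ± 10.3 CPM with DMSO (SD, n = 3 each). Its groups did not overlap, and its log2 fold change of 0.26 had an edgeR adjusted p of 0.886. Loxl2 had a log2 fold change of -0.50 (SE 0.27) and Loxl4 one of 0.30 (SE 0.43), and neither passed.

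The latent TGF-β binding proteins are relatives of the fibrillins, and some but not all of them tether the latent growth factor to the matrix. All were tested and 0 of 4 passed. Ltbp2 averaged 287 ± 133 CPM with compound 33 and 285 ± 13.4 CPM with DMSO (SD, n = 3 each), and Ltbp3 averaged 136 ± 52.9 CPM with compound 33 and 125 ± 17.5 CPM with DMSO. The levels of Ltbp2 were 162, 271 and 427 CPM in compound 33 replicates 1 to 3, so the compound 33 libraries lay on both sides of all DMSO libraries. Log2 fold changes were -0.38 for Ltbp1 (SE 0.22) and 0.48 for Ltbp4 (SE 0.43).

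Of the TGF-β ligands, 0 of 3 passed, and 2 had an unadjusted p under 0.05, both lower. Tgfb3 averaged 23.7 ± 5.25 CPM with compound 33 and 40.7 ± 5.39 CPM with DMSO (SD, n = 3 each), without overlap (log2 fold change -0.77, SE 0.25, edgeR adjusted p = 0.575). Tgfb2 averaged 19.1 ± 9.59 CPM with compound 33 and 34.9 ± 13.0 CPM with DMSO, with overlap (log2 fold change -0.86, SE 0.38, edgeR adjusted p = 0.72). Tgfb1 had a log2 fold change of -0.01 (SE 0.37).

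Of 16 other fibre-associated proteins 9 were tested, and 0 passed or lay under an unadjusted 0.05. The elastin microfibril interfacers Emilin2 and Emilin1 were the most abundant, with log2 fold changes of -0.12 (SE 0.30) and -0.58 (SE 0.32). Mfap1a, which despite its name is a nuclear splicing protein, had 0.30 (SE 0.27), and Adamtsl3 had -0.52 (SE 0.43).

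Of the microfibril-processing proteases 5 of 6 were tested and 0 passed. Htra1, a secreted serine protease, had the smallest unadjusted p of all partner genes. It stood at 244, 257 and 196 CPM in compound 33 replicates 1 to 3, against 99.2, 135 and 146 CPM in DMSO replicates 1 to 3. Every compound 33 library was above every DMSO library (log2 fold change 0.87, SE 0.22, unadjusted p = 0.00164, edgeR adjusted p = 0.401). Furin, the convertase that trims profibrillin, had -0.06 (SE 0.29), Bmp1, which processes procollagens and prolysyl oxidase, had -0.35 (SE 0.30), and Adamts6 had -0.44 (SE 0.38), all as log2 fold changes.

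Cell receptors for fibrillin and fibulins were represented by 6 tested integrin genes, of which 0 passed. Itgb5, whose protein pairs with the αv chain, averaged 624 ± 86.0 CPM with compound 33 and 313 ± 94.2 CPM with DMSO (SD, n = 3 each). Its libraries did not overlap (log2 fold change 1.0, SE 0.25, unadjusted p = 0.00165, edgeR adjusted p = 0.401). Itgb1 was similarly abundant, at 571 ± 14.9 CPM with compound 33 and 639.8 ± 157 CPM with DMSO, with a log2 fold change of -0.16 (SE 0.22). Itgb3 had 0.43 (SE 0.30) and Itga5 -0.42 (SE 0.39) on the same log2 scale.

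The elastin receptor complex, a splice form of the Glb1 product bound to the enzymes made by Ctsa and Neu1, was represented by these 3 genes, of which 0 passed. Counts per gene do not separate that splice form from the main Glb1 transcript, and exons of Glb1 overlap Tmppe on the same strand. Neu1, a sialidase, averaged 88.6 ± 13.9 CPM with compound 33 and 53.2 ± 10.3 CPM with DMSO (SD, n = 3 each), without overlap (log2 fold change 0.73, SE 0.23, edgeR adjusted p = 0.539). Ctsa had a log2 fold change of 0.32 (SE 0.33) and Glb1 one of 0.25 (SE 0.26). All 3 genes also serve lysosomal breakdown.

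Of 9 elastin-degrading enzymes 8 were tested and 0 passed. Ctsl and Mmp2 were the most abundant, with log2 fold changes of 0.16 (SE 0.20) and -0.37 (SE 0.23). Ctsk, cathepsin K, a protease able to cleave elastin and collagen, stood at 529, 302 and 259 CPM in compound 33 replicates 1 to 3, against 135, 242 and 273 CPM in DMSO replicates 1 to 3. Compound 33 replicate 1 was the highest library and DMSO replicate 1 the lowest, and the groups overlapped (log2 fold change 0.74, SE 0.31, edgeR adjusted p = 0.711). Mmp14 had a log2 fold change of 0.48 (SE 0.24).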

How the data were processed

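QuantSeq 3′ mRNA libraries were sequenced on an Ion Proton from RNA with an integrity number above 7, per the labels' protocols. Per the submitters' processing notes the tools were HISAT2 2.2.1, featureCounts 2.0.3, FastQC 0.11.9 and DESeq2, on the build mm10. The authors deposited raw read counts, 1 row per gene symbol and 1 column for each of 6 libraries. A second table that the authors deposited compares the groups: a mean normalized count (a signal), log2 fold changes with standard errors, a Wald score, and p-values.

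Tests on the counts used edgeR 4.0.16 in R 4.3.3 (filterByExpr, minimum count 10; TMM scaling; robust quasi-likelihood F test on group alone; two-sided, Benjamini-Hochberg threshold 0.05). Log2 fold changes are unshrunk, and the standard error is their size over the square root of F. Kept genes hold at least 99.4% of each library's reads. Replicates differed beyond counting noise (chi-square per degree of freedom 4.56 to 18.9), which cannot tell separate cultures from repeat preparations, and each library was treated as 1 sample. The fitting code was also run on simulated counts with independent libraries, which does not bear on the single-library values of Fbn1 and Fbn2. DESeq2 1.42.0, limma-voom (limma 3.58.1), other scalings and filters, a replicate block and left-out libraries were alternatives. Positions come from GENCODE M21.

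Named were all 10 genes and, per partner list, the 2 most abundant and the 3 with the smallest unadjusted p. Genes and lists were chosen with earlier results of these data known. The within-group spread used log2(CPM + 0.5).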

Additional observations from a re-analysis of the deposited data

How the results depend on the processing

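Counts of 0 genes passing, for the elastic fibre genes and for their partners, held in all 16 alternatives. The number of all genes that passed was 3, and it was 21 without a low-count filter, 18 with DESeq2, 7 with the replicate block, and between 1 and 7 with single libraries left out. The labels do not say whether the replicate numbers pair the samples. Deviations of same-numbered libraries correlated at -0.016, 0.218 and 0.082, and those of differently numbered libraries at -0.226 to 0.143. With 3 libraries a group, this check is too weak to decide whether the samples were paired. The block changed no call of the elastic fibre or partner genes. It moved the estimate of Fbn1 from -0.603 to -0.253 and that of Fbn2 from 1.6 to 0.717. The median log2 fold change of the elastic fibre genes lay between 0.0732 and 0.352 with single libraries left out, and was 0.0938 without both libraries numbered 1, an alternative chosen after seeing the data. The sign of Fbn1 turned without DMSO replicate 1 (0.43) and without both libraries numbered 1 (0.243), and that of Fbn2 without compound 33 replicate 1 (-0.825) and without both (-0.97). With single libraries left out Fbn1 lay between -0.966 and 0.43 and Fbn2 between -0.825 and 2.16. Values near 0 also changed sign, with ranges of -0.255 to 0.0719 for Efemp2 and -0.126 to 0.393 for Mfap5. Efemp2 was 0.0719, 0.0423 and 0.0182 without compound 33 replicate 1, compound 33 replicate 2 and DMSO replicate 3, and 0.0295 without both libraries numbered 1. Mfap5 was -0.0807, -0.126 and -0.0705 without compound 33 replicate 3, DMSO replicate 2 and DMSO replicate 3. Beyond the left-out libraries the causes were not tested. Fbn2 was not tested under the stricter filter. With 3 libraries a group, the 95% intervals of Fbn1, Fbn2 and Fbln1 reach beyond 2-fold.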
